A study of Mus musculus with 2 samples.

Results

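Dendritic cells were picked out of single-cell RNA-seq of leukocytes sorted from ischemic mouse brain. The study has 1 group of 2 libraries, replicate 1 and replicate 2, both from Foxp3Egfp mice aged 6 to 8 weeks. The strain is named for an EGFP reporter at Foxp3, the gene that marks regulatory T cells. Cells positive for CD45, CD11b and F4/80 and negative for CD3 were sorted and run on the 10x Chromium 3' v3 system. The labels call the sorted cells macrophages, give no uninjured or sham group, and do not say how many mice went into a library or whether the libraries came from separate mice, so the spread between them may be technical. Barcodes counted as cells when they had 1000 or more unique molecular identifiers (UMIs, each counting 1 captured transcript), 500 or more genes and no more than 10% of UMIs from mitochondrial genes. A dendritic cell was a cell with little microglial RNA (under 10 UMIs per 10000 of P2ry12, Tmem119, Sparc, Gpr34, Olfml3 and Siglech), at least 10 UMIs of the class II genes H2-Aa, H2-Ab1 and H2-Eb1, and at least 1 UMI of Cd209a, Flt3, Xcr1, Clec9a, Ccr7 or Fscn1. It also had no UMI of Cd3e, Cd3d or Cd79a and under 50 UMIs of S100a8 and S100a9 per 10000. The cells were thus chosen by measured counts of these genes, and no test is given for any of them. The rule found 155 dendritic cells among 22960 cells, 66 of 15050 in replicate 1 and 89 of 7910 in replicate 2.

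Dendritic cells take up protein, cut it into peptides and show the peptides to T cells on class II and class I molecules. Conventional dendritic cells grow under Flt3 signalling and fall into type 1 cells, which depend on Irf8 and Batf3 and cross-present antigen, and type 2 cells, which carry lectins such as Cd209a and Mgl2 and present mainly on class II. After activation both kinds switch on Ccr7, the receptor that guides cells to lymph nodes, and Fscn1, an actin-bundling protein. In the healthy brain such cells sit mainly in the meninges and the choroid plexus, and they enter the tissue after stroke.

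The libraries held 101893367 UMIs in replicate 1 and 62850768 in replicate 2, with a median of 5356 and 5891.5 UMIs per cell. They differed in make-up: other macrophages were 33.1% of the cells of replicate 1 and 7.69% of those of replicate 2, and microglia were 40.2% and 66.7%. Barcodes with under 100 UMIs, taken as free RNA, held 4.91% and 4.40% of all UMIs. Among the cells 31 barcodes occurred in both libraries, 0 of them on dendritic cells of replicate 1 and 2 on dendritic cells of replicate 2. Dendritic cells were shallower in replicate 1, with a median of 3353 UMIs, than in replicate 2, with 9643, and their summed UMIs were 279210 and 886812.

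Dendritic cells were a rare population among the sorted cells of both libraries. They made up 0.439% of the cells of replicate 1 (exact 95% binomial interval 0.339 to 0.558) and 1.13% of those of replicate 2 (0.905 to 1.38). The intervals cover counting error only, and the shares of the libraries do not overlap. Replicate 1 is also the library with the larger macrophage share and the shallower dendritic cells, and the part of either in the difference was not tested. The share was 0.266% in replicate 1 when at least 2 UMIs of the 6 genes were required, and 0.279% and 0.683% when only cells with under 10 UMIs per 10000 of the C1q genes were kept.

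The genes that defined the cells were themselves unevenly used, and these values describe the rule. Cd209a, a lectin of type 2 cells, had a UMI in 40 of 66 and 59 of 89 dendritic cells. Flt3, the receptor for the growth factor of conventional dendritic cells, had one in 20 and 40 cells. Xcr1, the type 1 chemokine receptor, had one in 4 and 7 cells, and Clec9a, the type 1 receptor for dead cells, in 5 and 10. Ccr7 was seen in 9 and 10 cells and Fscn1 in 5 and 8. Most cells therefore entered through Cd209a, which was the only gene of the 6 in 32 and 35 cells.

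Many dendritic cells of replicate 1 stood close to the edge of the rule. Exactly 1 UMI of the 6 genes was the basis for 26 cells of replicate 1 and 16 of replicate 2, and 14 and 48 cells had at least 5. The class II threshold was less tight: 3 cells and 1 cell had 10 to 19 class II UMIs, against 6 and 0 otherwise eligible cells with 5 to 9. A microglial score of 5 to under 10 was found in 7 and 12 cells, and 10 and 6 otherwise eligible cells scored 10 to under 15. In all, 125 and 78 cells met every other criterion but scored 10 or more.

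The nearest cells for comparison were those that met every criterion except that they had none of the 6 genes, called class II-matched cells here (267 in replicate 1, 159 in replicate 2). They are matched in the class II threshold, not in the class II level. Monocytes were cells with at least 20 UMIs of Ly6c2, Plac8 and Chil3 per 10000 and under 10 class II UMIs (408 and 404 cells). Counts were summed per library and population and given as CPM, the count for each 1000000 UMIs summed. A 3' library gives about 1 count per captured transcript end, so CPM needs no correction for gene length. Class II transcripts of H2-Aa, H2-Ab1 and H2-Eb1 reached a median of 284 and 351 UMIs per 10000 in dendritic cells, against 55.3 and 122 in class II-matched cells. Those values follow in part from the rule and carry no test.

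Klrd1 and Mgl2, the markers of the label that the rule did not use, were higher in dendritic cells than in each of the other 6 populations of the same library. Klrd1, which encodes CD94, a lectin-like receptor of NK cells that some dendritic cells also carry, was at 663 CPM in replicate 1 and 409 in replicate 2. It was at 35.1 and 30.9 CPM in class II-matched cells and at 1.72 and 0.766 in monocytes, so that the groups did not overlap. After each cell was thinned to 2000 UMIs, which left out 4 and 1 dendritic cells, Klrd1 had a UMI in 58.1% and 40.9% of dendritic cells. Microglia, which should lack it, showed it in 0.8% and 1.4% of cells at the same depth (median 3932 and 5396 UMIs before thinning), and without thinning the dendritic shares were 69.7% and 65.2%. Mgl2, a galactose-binding lectin, was seen in 11.3% and 21.6% of thinned dendritic cells, against 0.2% and 0.1% of microglia. Zbtb46, a transcription factor of conventional dendritic cells, was low, at 14.3 and 14.7 CPM, and stood at 1.17 and 3.43 CPM in class II-matched cells (edgeR adjusted p = 0.11).

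**Figure D1:**
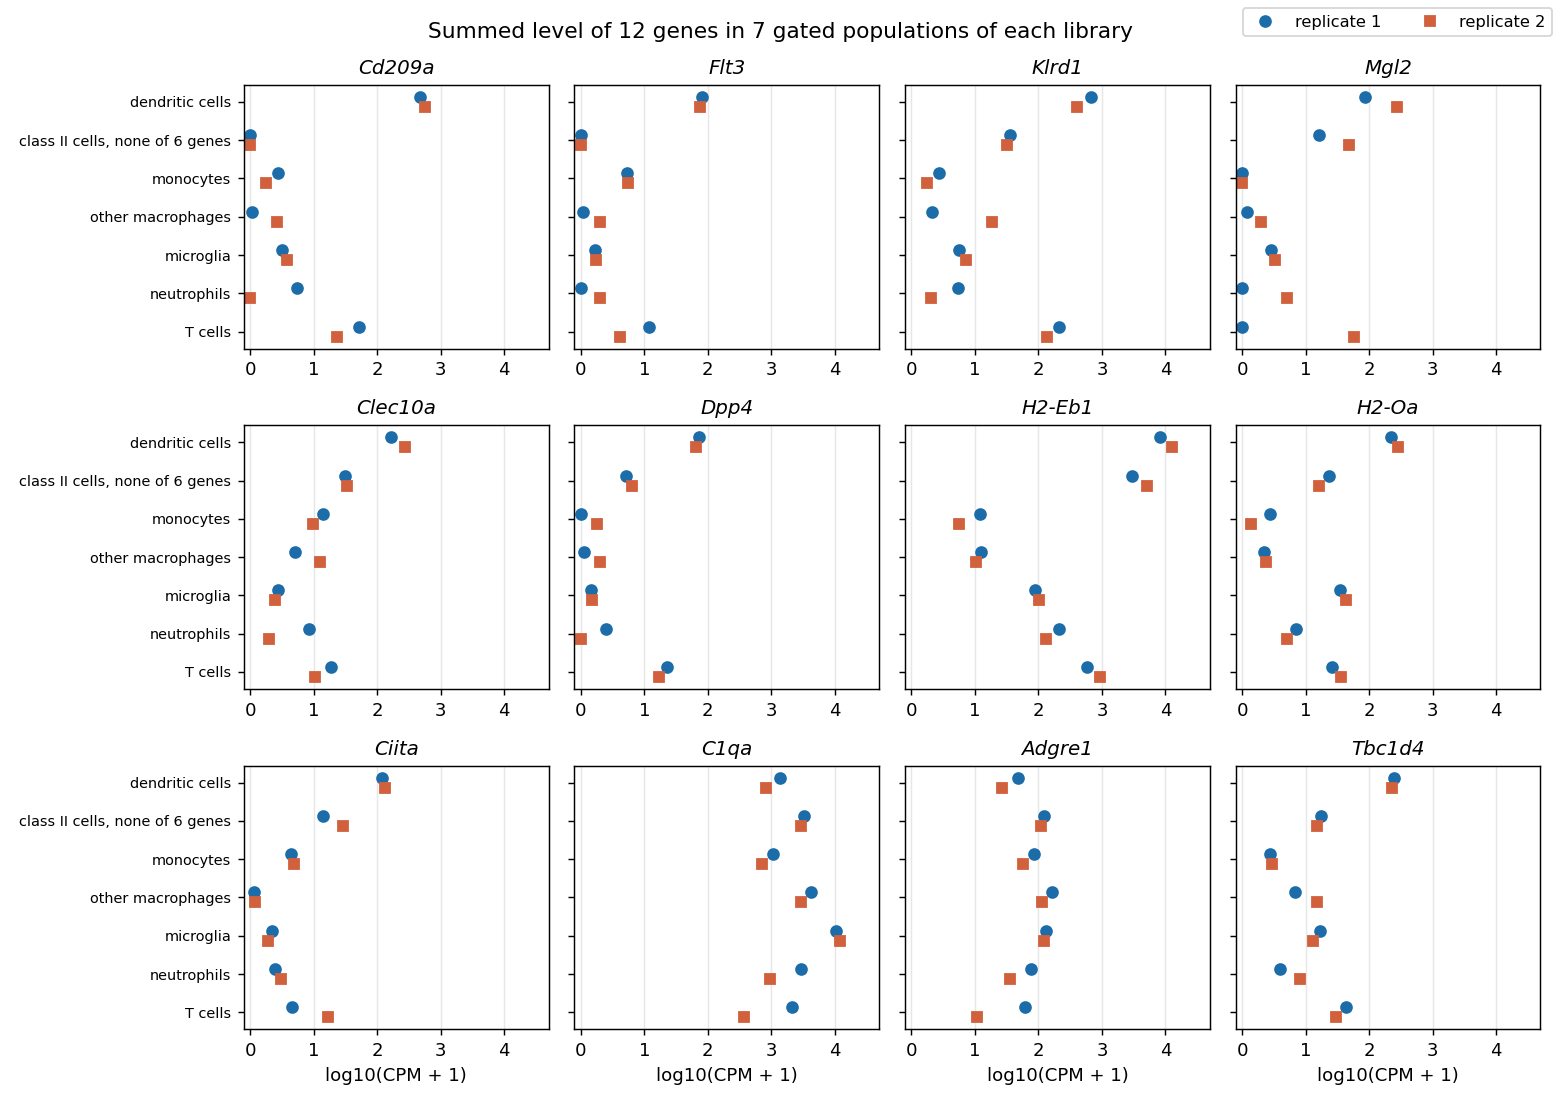
Each panel gives 1 gene. The horizontal axis is log10(CPM + 1) of the counts summed over a population of 1 library, and each row is a population, with a circle for replicate 1 and a square for replicate 2. Klrd1 stood at 663 and 409 CPM in dendritic cells, above every other population shown, while C1qa and Adgre1 were lower there than in class II-matched cells. Cd209a, Flt3 and H2-Eb1 are genes of the rule.

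Dendritic cells carried more transcripts for loading class II molecules, for dendritic cell identity and for type 2 markers than class II-matched cells did, and fewer of some macrophage markers. The rule split these groups by dendritic cell genes, so the higher identity and type 2 genes follow in part from it. The fit with edgeR's quasi-likelihood test covered 9286 genes in 14 sums (7 populations in each library), with the library as a block and Benjamini-Hochberg adjustment. It called 140 genes higher (1.51% of those tested) and 65 lower (0.700%), all 205 with the same sign in both libraries. The median log2 fold change over all tested genes was -0.03.

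Helper genes of class II were higher beside the class II genes of the rule. Class II-matched cells had lower class II levels than dendritic cells, and the part of that difference in the helper genes was not tested. Of 10 tested members of the class II list outside the rule 6 were higher and 0 lower, with a median log2 fold change of 1.36. H2-Oa and H2-Ob encode the chains of H2-O, which restrains peptide exchange on class II, and H2-DMb2 encodes a chain of H2-M, which drives that exchange. H2-Oa was at 218 and 285 CPM in dendritic cells and at 22.2 and 15.1 in class II-matched cells, which gave 3.70 ± 0.27 as log2 fold change and its SE (edgeR adjusted p = 2.07e-05). H2-Ob was at 107 and 98.1 CPM against 5.85 and 8.92 (3.75 ± 0.30; edgeR adjusted p = 3.7e-05). H2-DMb2 was at 172 and 192 CPM against 15.8 and 20.6 (3.26 ± 0.33; edgeR adjusted p = 0.000296). In each of the 3 genes both dendritic values lay far above both matched ones, which describes genes picked for a large change with the same sign in both libraries. Ciita, the master switch of class II transcription, was at 118 and 133 CPM against 12.9 and 27.5 (2.62 ± 0.32), and H2-DMa and the invariant chain Cd74 were also higher. H2-DMb1 did not pass (566 and 985.5 CPM against 174 and 426, edgeR adjusted p = 0.064), nor did Ctss and Lgmn, proteases that trim the invariant chain and antigen.

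H2-Oa, H2-Ob and H2-DMb2 lie together on chromosome 17 in GRCm38: H2-Oa at 34092340 to 34095234, H2-DMb2 at 34143307 to 34151555 and H2-Ob at 34238903 to 34254414, all protein-coding and on the plus strand (GENCODE vM21). Class II genes are known to be switched on through a shared promoter module, whose X box binds RFX and whose Y box, an inverted CCAAT box, binds NF-Y, with Ciita recruited on top. H2-Oa, H2-Ob, H2-DMb2 and Ciita were each called higher in dendritic cells, and the part of Ciita in the other genes was not tested. Printed as a description are the 150 bases before the RefSeq start of H2-Oa, H2-Ob and H2-DMb2 (GRCm38.p6, plus strand, 5′ to 3′). The windows of H2-DMb1 and the rule gene H2-Eb1 stand beside them. Capitals mark matches on either strand to 2 patterns. GATTGG is the core of the Y box, and AACNNATGATGC is the stretch upstream of it that H2-Ob, H2-DMb2, H2-DMb1 and H2-Eb1 share, N standing for any base. It lies where an X box is known to lie.
H2-Oa, chr17:34092229-34092378: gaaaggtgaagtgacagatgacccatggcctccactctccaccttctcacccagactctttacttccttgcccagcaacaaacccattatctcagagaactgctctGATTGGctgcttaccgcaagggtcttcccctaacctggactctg
H2-Ob, chr17:34238755-34238904: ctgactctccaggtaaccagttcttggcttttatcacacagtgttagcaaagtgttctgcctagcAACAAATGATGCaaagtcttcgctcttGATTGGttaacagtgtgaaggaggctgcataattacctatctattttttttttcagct
H2-DMb2, chr17:34145099-34145248: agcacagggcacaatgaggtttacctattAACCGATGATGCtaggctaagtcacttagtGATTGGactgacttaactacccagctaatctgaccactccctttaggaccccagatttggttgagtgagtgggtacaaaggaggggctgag
H2-DMb1, chr17:34153041-34153190: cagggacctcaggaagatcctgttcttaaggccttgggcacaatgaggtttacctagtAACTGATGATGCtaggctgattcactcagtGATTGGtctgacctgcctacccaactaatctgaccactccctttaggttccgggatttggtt
H2-Eb1, chr17:34305717-34305866: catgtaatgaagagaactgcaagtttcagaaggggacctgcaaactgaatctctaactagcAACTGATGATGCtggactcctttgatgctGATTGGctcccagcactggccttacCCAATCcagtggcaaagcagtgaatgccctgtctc
All 5 windows held GATTGG, which 10.9% of the 32851 windows of the same length in the RefSeq table also held. AACNNATGATGC was found in the 4 windows it was taken from, not in that of H2-Oa, and in 8 of all windows (0.0244%). In those 4 the matches did not overlap, 15 to 18 bases lay between the X match and the first Y match, and 5 windows of the whole table held both patterns, the fifth belonging to Gm38969. A match is a description of letters and was not tested for binding.

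Genes of dendritic cell identity were higher as well. Class II-matched cells were chosen for having no UMI of the dendritic cell genes of the rule. Higher levels of other core, type 1, type 2 and mature genes therefore follow in part from that choice. How large that part is was not tested. Of the 16 tested members of the conventional dendritic cell list 7 were higher and 0 lower, with a median log2 fold change of 1.74. Dpp4, a surface peptidase known as CD26, was at 71.6 and 63.1 CPM against 4.1 and 5.49 (3.74 ± 0.64; edgeR adjusted p = 0.0141). Bcl11a, a transcription factor of dendritic and lymphoid progenitors, was at 57.3 and 28.2 CPM against 3.51 and 2.06, and Kit, the stem cell factor receptor, at 43 and 20.3 against 1.76 and 0.686. Both dendritic values lay above both matched values for these 3 genes. Of 17 tested type 2 genes 8 were higher and 0 lower (median 1.87), and of 14 tested type 1 genes 4 were higher and 1, Cd36, lower (median 1.41). Of the 24 tested genes of the mature Ccr7 list 5 were higher and 0 lower (median 1.71), among them Ebi3, a subunit of IL-27 and IL-35, at 46.6 and 33.8 CPM against 11.7 and 11.

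Tbc1d4, which encodes a Rab GTPase-activating protein that holds back vesicle traffic and lies on chromosome 14 at 101442360 to 101609191 (GRCm38, minus strand), had among the steadiest values. It stood at 244 and 229 CPM in dendritic cells and at 16.4 and 14.4 in class II-matched cells, a log2 change of 3.87 ± 0.36 (edgeR adjusted p = 0.000194). Both libraries gave nearly the same level on each side.

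Among the genes with the largest changes were 3 receptors usually described on NK cells, Klrd1, Klrk1 and Klrb1b, which were not in a list of their own. Klrd1, on chromosome 6 at 129591782 to 129598775 (plus strand), had a log2 fold change of 3.95 ± 0.74 (edgeR adjusted p = 0.0188). Klrk1, which encodes NKG2D, was at 96.7 and 85.7 CPM against 6.44 and 10.3 (3.33 ± 0.70). Klrb1b, an inhibitory NK receptor, was at 50.1 and 62 CPM against 2.93 and 7.55 (3.41 ± 0.65). Whether RNA of NK cells had a part in these receptors was not tested. The rule had removed cells with a Cd3e or Cd3d UMI, so low T cell genes follow in part from it. Of the 16 genes of the NK and T cell list outside the rule 13 were at 0 UMIs in dendritic cells of each library, among them Ncr1, Nkg7, Gzma, Gzmb and Prf1. The 16 summed to 71.6 and 47.4 CPM in dendritic cells, and edgeR called 0 of the 15 tested (1 at an unadjusted p under 0.05, and 1 by DESeq2; median -0.92). Itgae, the integrin CD103, was at 93.1 and 35 CPM against 4.68 and 3.43, and Ltb, a tumour necrosis factor family cytokine, at 75.2 and 91.3 against 4.68 and 12.4.

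Few lectins and signals to T cells passed the test. Clec10a, a galactose-type lectin and the neighbour of Mgl2 on chromosome 11, was at 161 and 273 CPM against 29.8 and 32.3 (2.78 ± 0.38; edgeR adjusted p = 0.00388). Mgl2 was at 86 and 273 CPM against 15.2 and 47.4 (2.51 ± 0.42; edgeR adjusted p = 0.0143). The groups did not overlap for either gene, though the Mgl2 level differed between the libraries by more than its level in 1 of them. These 2 were the higher ones among 13 tested C-type lectins, whose median was -0.38. Tnfsf9, the ligand of 4-1BB, was the only gene edgeR called higher of 12 tested for costimulation, at 233 and 330 CPM against 32.8 and 57.7. The median of the 12 was 1.07, with 10 above 0, 8 at an unadjusted p under 0.05 and 2 called by DESeq2. Cd83 (294 and 436 CPM against 152 and 198, edgeR adjusted p = 0.22) and Cd86 (96.7 and 145 CPM against 51.5 and 85.8, edgeR adjusted p = 0.15) did not pass, nor did Cd40. Of 15 class I genes 1 was higher, Psmb9, a subunit of the immunoproteasome (279 and 281 CPM against 88.3 and 179), and of 9 tested chemokine receptors edgeR called 0 (3 at an unadjusted p under 0.05, and 1 by DESeq2). Of 17 chemokines Ccl5 and Cxcl9 were higher, with Cxcl9, an attractant of T cells, at 21.5 and 51.9 CPM against 3.51 and 0.686. For Ccl5, 75 of 133 and 336 of 378 dendritic UMIs lay in 4 cells of each library that had a Ccr7 UMI.

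The lower genes included several known from macrophages. Hmox1, which breaks down haem, was at 118 and 117 CPM in dendritic cells and at 557 and 1258 in class II-matched cells (-2.96 ± 0.50; edgeR adjusted p = 0.0133). Spp1, the secreted matrix protein osteopontin, was at 1633 and 396 CPM against 8263 and 2843 (-2.63 ± 0.50). Slc11a1, a metal transporter of phagosomes, was at 25.1 and 20.3 CPM against 112 and 122 (-2.47 ± 0.37). For each of the 3 both dendritic values were below both matched values. Of the 17 macrophage markers tested 3 were lower (Cd63, Adgre1 and Cd14), 0 were higher and the median was -1.77, with 0 of 17 values above 0. Adgre1 encodes F4/80, the antigen of the sort, and was at 46.6 and 25.9 CPM against 119 and 107. Folr2, a marker of border macrophages, was at 3.58 and 0 CPM against 32.2 and 17.8, with 1 UMI in all dendritic cells.

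**Figure D2:**
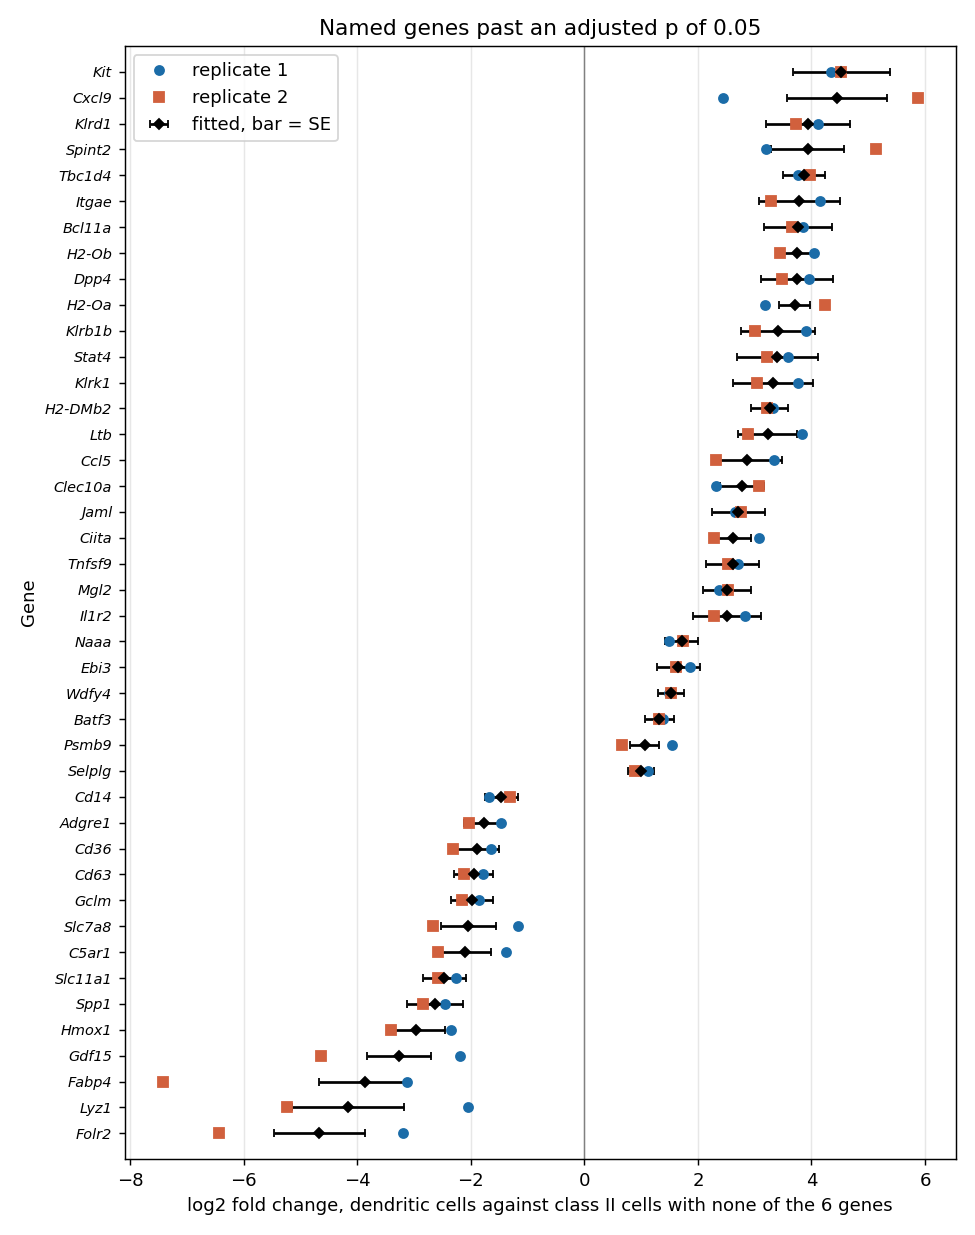
Log2 fold change of the named genes in dendritic cells over class II-matched cells, 1 gene a row. Diamonds with bars are the fitted value and its standard error, circles are replicate 1 and squares replicate 2. All named genes lie on the same side of 0 in both libraries, and Tbc1d4, H2-DMb2 and Wdfy4 show the libraries close together, while Fabp4, Cxcl9 and Gdf15 show them apart.

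Class II-matched cells held far more macrophage RNA than dendritic cells, and this difference moved with the comparison. The 3 C1q genes, which macrophages and microglia make in quantity, had a median of 5.89 and 2.92 UMIs per 10000 in dendritic cells and of 87.8 and 79.6 in class II-matched cells. Among dendritic cells 42 of 66 and 54 of 89 had under 10 per 10000, against 48 of 267 and 41 of 159 class II-matched cells. Summed over 17 macrophage markers, none of them at 0, dendritic cells had 40461 and 16064 CPM, class II-matched cells 110362 and 77049, and free RNA 108633 and 72423. The same markers summed to 83173 CPM in T cells of replicate 1 and to 6011 in those of replicate 2. When both groups were kept to cells with under 10 C1q UMIs per 10000, only 12 genes were called higher and 27 lower, and 25 of the 205 first calls remained.

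Tbc1d4, H2-Ob and H2-Oa were the named higher genes that held in that restricted comparison, with log2 fold changes of 2.87, 2.99 and 2.17 (edgeR adjusted p = 0.00823 for each). Hmox1, Spp1, Slc11a1, C5ar1 and Cd14 stayed lower. Klrd1 kept its direction at 2.19 without passing, as did H2-DMb2 at 1.76, while Lyz1, a lysozyme called lower in the full comparison, turned to 0.82. The calls also leaned on the library: without the dendritic cells of replicate 2 there were 6 higher and 0 lower genes (1125 genes had an unadjusted p under 0.05), and without those of replicate 1 there were 25 and 5. Tbc1d4, H2-Ob, H2-Oa and H2-DMb2 passed when the dendritic cells of either library were left out, with the other sums of both libraries kept. Without the block for the library the fit called 31 genes higher and 10 lower, with these 4 among them.

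**Figure D3:**
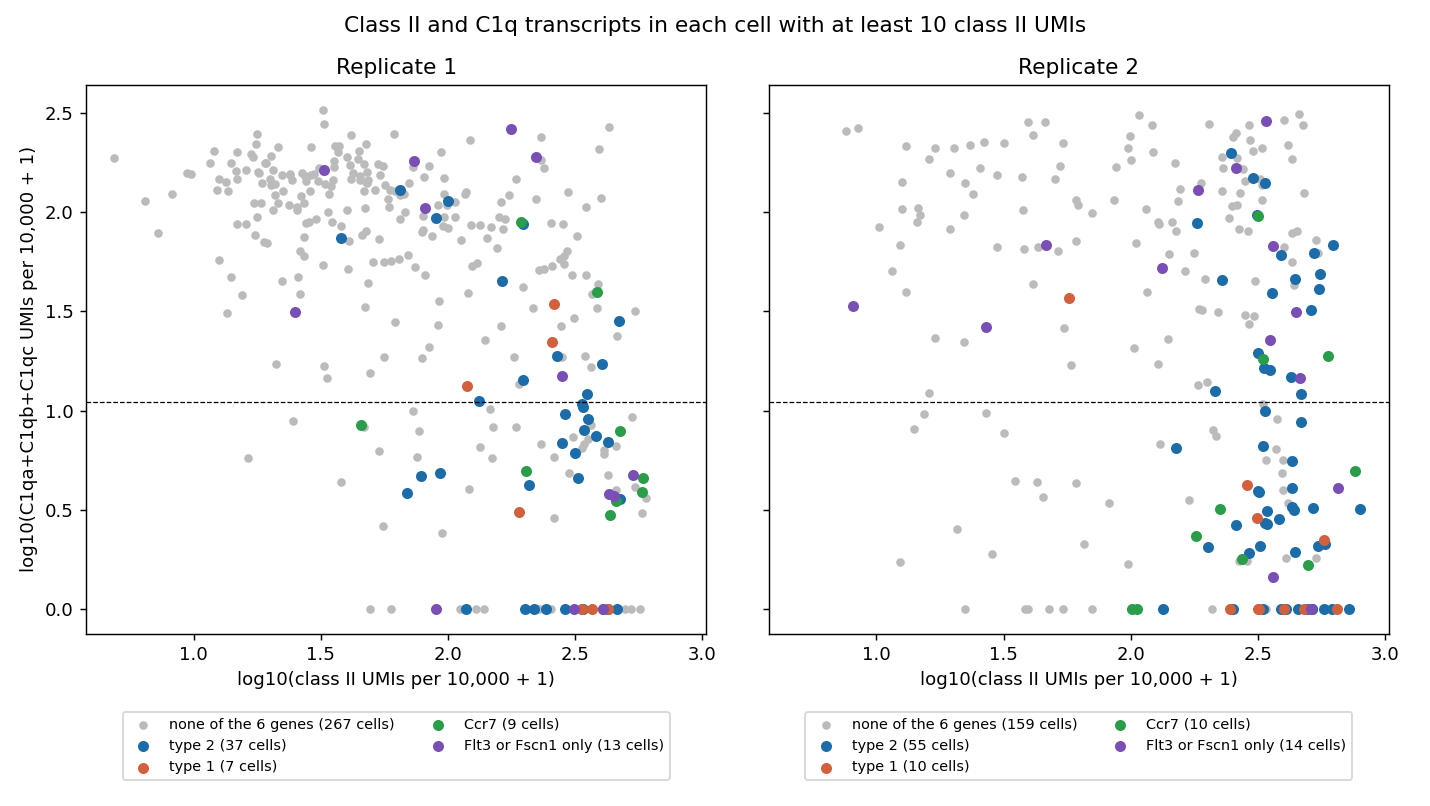
Each point is 1 cell with at least 10 class II UMIs. The horizontal axis is log10 of class II UMIs per 10000 plus 1, the vertical axis log10 of C1qa, C1qb and C1qc UMIs per 10000 plus 1, and the dashed line marks 10 per 10000. Dendritic cells gather at the lower right, with 42 of 66 and 54 of 89 under the line. Of the grey class II-matched cells 48 of 267 and 41 of 159 also lie under the line. The other dendritic cells lie among the class II-matched cells above the line. Of these dendritic cells 12 and 20 are type 2 cells, and 7 and 11 have Flt3 or Fscn1 only.

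The dendritic cells were also divided by their C1q content. Cells with under 10 C1q UMIs per 10000 had 4011 and 3775 CPM of macrophage markers, and those at or above it had 73439 and 32754. Klrd1 was at 1040 and 456 CPM in the first and at 321 and 346 in the second, so it was present in both. H2-Oa was at 309 and 339 CPM in the first and at 136 and 213 in the second, and Bcl11a at 106 and 45 against 13.6 and 5.32. These classes are ranges cut from a score, so the values carry no test, and the part of free RNA in them was not tested. The macrophage markers include the C1q genes of the cut, so their difference between the classes follows in part from it. Removing the cells with the highest doublet scores took out 1 dendritic cell of replicate 1 and 0 of replicate 2.

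Monocytes and dendritic cells differed far more widely. The same fit called 539 genes higher in dendritic cells (5.80% of those tested) and 611 lower (6.58%), 1141 of the 1150 with the same sign in both libraries, and the median over all genes was -0.02. Without the dendritic cells of replicate 2 the counts were 63 and 38, and without those of replicate 1 they were 343 and 297. Without the library block 361 were higher and 344 lower. Monocytes were chosen for having few class II UMIs, so class II genes were bound to be higher in dendritic cells, and they are given as a description: Cd74 stood at 15945 and 27040 CPM against 203 and 238, and 7 of 10 tested members were higher.

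Several genes were seen in dendritic cells and in no monocyte. Mgl2 had 266 UMIs in dendritic cells and 0 in monocytes of both libraries, at least 287-fold higher against a limit of 3 counts over the group. Epcam, an adhesion molecule, had 95 UMIs against 0 (at least 102-fold), Klrb1b 69 against 0 (at least 74.4-fold) and Itgae 57 against 0 (at least 61.4-fold). Klrd1 had 548 UMIs against 4. Of 17 type 2 genes 10 were higher and 2, Clec4a2 and the integrin Itgam, lower, with a median of 3.71. Of 16 conventional dendritic cell genes 10 were higher and 0 lower (2.56), now with Zbtb46, Irf4, Itgax and Kmo, and of 24 mature genes 12 were higher and 0 lower (1.78). Dendritic cells were chosen by genes of these kinds, so the counts for these lists follow in part from the rule.

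Dividing-cell genes were higher in dendritic cells than in monocytes. Of 16 cell cycle genes 12 were higher and 0 lower, with a median of 2.49, while against class II-matched cells edgeR and DESeq2 each called 0 of the 16, with 0 at an unadjusted p under 0.05. Stmn1, a microtubule regulator of dividing cells, was at 158 and 192 CPM against 37.1 and 10.3 (3.06 ± 0.45; edgeR adjusted p = 0.00101). Ccnb2, a mitotic cyclin, rested on replicate 2 alone, with 0 and 25.9 CPM against 2.59 and 1.53.

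Many inflammatory chemokine, cytokine and interferon response genes were lower in dendritic cells than in monocytes. Of 17 chemokines 9 were lower in dendritic cells and 3 higher, with a median of -1.90. Cxcl2, a neutrophil attractant, was at 695 and 399 CPM against 5401 and 6841, and Cxcl3 at 14.3 and 25.9 against 421 and 487. Ccl17, a ligand of Ccr4, went the other way with 20 UMIs against 0 (at least 21.6-fold higher), as did Ccl5 at 476 and 426 CPM against 31 and 59.4. The Ccl5 level rested largely on 4 cells of each library with a Ccr7 UMI. In type 2 cells, defined below, Ccl5 was at 126 and 40.1 CPM, so replicate 2 was not above monocytes there. Of 13 cytokines 7 were lower, including Osm (46.6 and 86.8 CPM against 423 and 606) and the IL-1 receptor antagonist Il1rn (28.7 and 33.8 against 155 and 289), and Ebi3 was higher (median -1.49). The summed level of all 16 cytokines was 1673 and 4194 CPM against 2929 and 4155, so replicate 2 showed no lower sum. Il1b, the largest part of these sums, did not pass, at 1296 and 3743 CPM against 1748 and 2630 (edgeR adjusted p = 0.94).

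Of 18 interferon-stimulated genes 10 were lower in dendritic cells and 0 higher (median -1.53). Rsad2, an antiviral enzyme, was at 28.7 and 91.3 CPM against 305 and 502 (-2.72 ± 0.45; edgeR adjusted p = 0.00215). Against class II-matched cells edgeR and DESeq2 called 0 of the 18 (3 at an unadjusted p under 0.05), with a median of 0.43. Monocytes were chosen by Ly6c2, Plac8 and Chil3, so the levels of other monocyte markers follow in part from that choice and are given as a description. Of 9 such markers 7 were lower in dendritic cells (median -3.24). Vcan, a matrix proteoglycan, was at 0 and 10.1 CPM against 115 and 108, and Fn1, fibronectin, at 35.8 and 58.6 against 634 and 728. Hmox1 was at 118 and 117 CPM against 3531 and 4488, and Pdpn, a mucin-type receptor, had 0 UMIs in dendritic cells against 275, at least 28.4-fold lower. The macrophage markers that were lower included Cd14, Fcgr1, Lyz2 and Cd63.

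The 6 genes split the dendritic cells into 4 subsets. Cells with Ccr7 numbered 9 and 10, cells with Xcr1 or Clec9a and no Ccr7 (type 1) 7 and 10, and cells with Cd209a and none of those 3 (type 2) 37 and 55. The remaining 13 and 14 had Flt3 or Fscn1 only. Type 2 cells were 56.1% and 61.8% of the dendritic cells, type 1 cells 10.6% and 11.2%, and Ccr7 cells 13.6% and 11.2%. As a description of the rule genes, 0 cells and 1 cell had Cd209a beside Xcr1 or Clec9a, no cell had Ccr7 beside them, and 3 and 3 Ccr7 cells also had Cd209a. The 26 and 16 cells with exactly 1 UMI of the 6 genes could not show 2 of them. With under 20 cells a library, the type 1 and Ccr7 cells give values with no test, and the genes below were picked for size: at least 5 UMIs in at least 4 cells and at least 4-fold over type 2 cells in both libraries.

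In type 1 cells 528 genes outside the rule had enough UMIs and cells to be considered, and 10 of them (1.89%) reached 4-fold. Of the 16 genes of the type 1 list outside the rule 6 had enough UMIs, and these 6 (Irf8, Batf3, Naaa, Wdfy4, Ifi205 and Ppt1) were among the 10. Enough UMIs was judged in the type 1 cells themselves, so list genes low there were never considered. The overlap with the list is therefore a description. Irf8, the transcription factor that type 1 cells need, stood at 1224 CPM in replicate 1 (exact 95% Poisson interval 831 to 1737, counting error only) and 1018 in replicate 2 (845 to 1217), against 69.2 and 92.2 in type 2 cells. Batf3, its partner, was at 355 and 185 CPM against 44 and 36.1, and Naaa, a lysosomal lipid amidase, at 395 and 833 against 56.6 and 82.1. Ifi205, a DNA sensor family member, had UMIs in 7 of 7 and 8 of 10 type 1 cells, at 592 and 522 CPM against 0 and 16. These values restate the choice by size. Gcsam, Snx22 and Cxcr3, chosen after their values were seen, had UMIs in type 1 cells of both libraries and 0 in the other 3 subsets. The other genes chosen by size were Rtl8a, Ifi211, Pafah1b3 and Fnbp1.

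Type 1 cells had little macrophage RNA, 5999 and 6523 CPM over the 17 markers. Itgam, the CD11b gene of the sort, had 0 UMIs in type 1 cells of both libraries, which allows up to 118 and 25.3 CPM, and stood at 94.3 and 102 in type 2 cells, so replicate 1 is too shallow to show a difference. Mgl2 also had 0 UMIs in type 1 cells.

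Type 2 cells, the largest subset, had Mgl2 and Clec10a at higher levels than type 1 cells, which carry no test. By the same rule of size, set against type 1 and Ccr7 cells together, 0 of 3421 considered genes reached 4-fold. Among those considered were 15 genes of the type 2 list. Counts under 3 on the other side were set to 3. Klrd1 was found in 32 of 37 and 38 of 55 type 2 cells, at 767 and 483 CPM, and in 1 of 7 and 7 of 10 type 1 cells, at 158 and 177. Mgl2 was at 151 and 433 CPM and Clec10a at 214 and 375. Tnfsf9 was at 359 and 383 CPM in type 2 cells and at 0 and 75.8 in type 1 cells. Klrd1 was higher still in Ccr7 cells, at 892 and 598 CPM. The C-type lectins outside the rule summed to 899 and 1553 CPM in type 2 cells and to 1283 and 977 in cells with Flt3 or Fscn1 only, so the order differed between the libraries.

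In Ccr7 cells 7 of 766 considered genes (0.914%) reached 4-fold: Ccl5, Tbc1d4, Tmem123, Samsn1, AW112010, Map3k14 and Rogdi. The first 4 of these belong to the mature list, of which 5 of 31 genes outside the rule had enough UMIs. Enough UMIs was judged in the Ccr7 cells themselves, so this overlap is a description too. Tbc1d4 was at 1168 (827 to 1604) and 951 (771 to 1160) CPM against 138 and 132 in type 2 cells, with UMIs in 9 of 9 and 8 of 10 Ccr7 cells. Ccl5, a chemokine for T cells, was at 2306 and 3294 CPM against 126 and 40.1, with its UMIs found in 4 of 9 and 4 of 10 cells, against 11.2% and 8.14% of microglia, without thinning. Traf1, a survival adaptor of the NF-kB pathway, was at 769 and 549 CPM against 75.5 and 172, and Cacnb3, a calcium channel subunit, at 338 and 88.2 against 0 and 0. Ccl22, another ligand of Ccr4, was at 184.5 and 39.2 CPM against 6.29 and 12.02, on 6 and 4 UMIs. Il12b, a subunit of IL-12, was at 123 and 0 CPM in Ccr7 cells and at 0 in the other subsets. Traf1, Cacnb3, Ccl22 and Il12b belong to the mature list and were chosen after their values were seen.

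**Figure D4:**
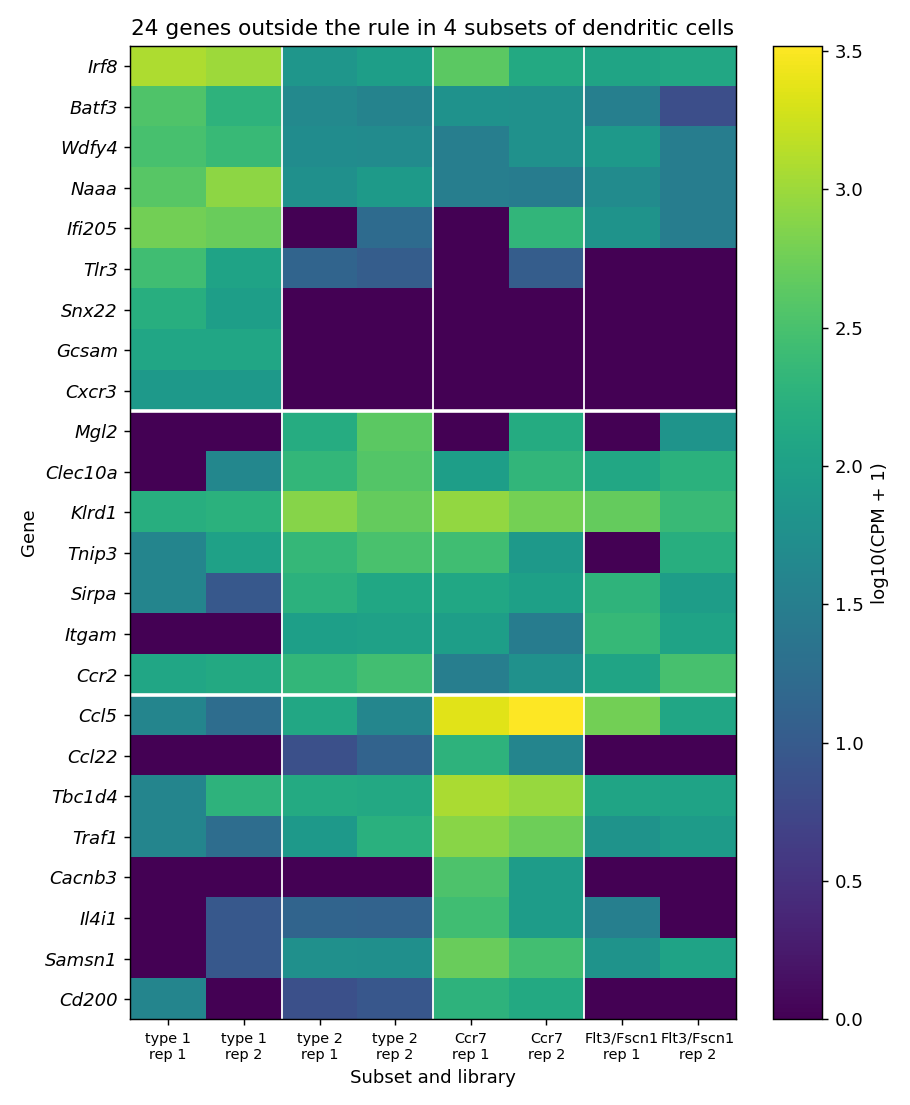
Rows are 24 genes outside the rule and columns are the 4 subsets in each library, coloured by log10(CPM + 1). The upper block holds genes of type 1 cells (Irf8 1224 and 1018 CPM there) and the lower block genes of Ccr7 cells (Tbc1d4 1168 and 951 CPM there). The middle block holds genes known from type 2 cells (Mgl2 151 and 433 CPM there). No gene of the middle block reached 4-fold in type 2 cells by the rule of size, and Klrd1 was higher in Ccr7 cells. The Flt3 or Fscn1 cells resemble none of the other subsets fully.

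The cells with Flt3 or Fscn1 only had the highest macrophage content of the 4 subsets, though not in every cell. Their median C1q level was 13.99 and 31.6 UMIs per 10000. Their macrophage markers, which include the C1q genes, summed to 59009 and 37037 CPM, the highest of the 4 subsets in each library. Under 10 C1q UMIs per 10000 were found in 6 of 13 and 3 of 14 of these cells. In replicate 1 the deepest of them held 22055 of the 62363 UMIs summed over the subset. Fscn1 was at 139.5 and 196 CPM in microglia, so 2 and 5 cells that entered by Fscn1 alone rest on a gene found there as well.

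Some markers of other cell types were present in the dendritic cells, beside the macrophage RNA given above. Of 9 tested monocyte markers edgeR and DESeq2 called 0 against class II-matched cells (4 at an unadjusted p under 0.05), and of 7 border macrophage markers 1, Folr2, was lower. The 7 microglial markers outside the rule summed to 989 and 1066 CPM, against 9089 and 12634 in microglia, and of 7 tested Selplg, a selectin ligand, was higher than in class II-matched cells (308 and 341 against 131 and 185 CPM). B cell markers outside the rule were at 0 for 7 and 6 of 9 genes, and against class II-matched cells edgeR and DESeq2 called 0 of the 3 tested (1 at an unadjusted p under 0.05). Against monocytes edgeR called 1 of the 3 higher, Ighm, and DESeq2 also called 1. Il1r2, a decoy IL-1 receptor placed in the neutrophil list, was higher at 140 and 200 CPM against 18.1 and 41.2, the only one of 10 tested. Of the plasmacytoid list edgeR and DESeq2 called 0 of 5 tested genes in both comparisons (2 and 1 at an unadjusted p under 0.05). The part of these cell types in the results was not tested.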

How the data were processed

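The authors deposited a matrix of raw UMI counts per gene and barcode for each library, unnormalized and with free RNA not subtracted as far as the values show. Per the submitters' processing notes, STAR 2.5.1b, Cell Ranger 4.0.0 and Seurat 4 were used, with GRCm38 (mm10) and GRCh38 named as builds; the role of the last and the use of strand are not given in the sources used here. The files list 31053 genes, of which 99.9% matched GENCODE vM21.

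The members, the 21 gene lists and the tests were chosen with earlier results of these data known. Counts were summed per library and gated population, 7 populations in all: dendritic cells, class II-matched cells, monocytes, other macrophages (as monocytes with under 20 UMIs of the 3 monocyte genes per 10000), microglia (at least 30 UMIs of the microglial genes per 10000), neutrophils (at least 50 UMIs of S100a8 and S100a9 per 10000) and T cells (a UMI of Cd3e or Cd3d). The 14 sums were fitted with edgeR 4.0.16 in R 4.3.3 (TMM, filterByExpr, quasi-likelihood test, library as a block, 6 residual degrees of freedom, adjusted p under 0.05), so the spread is shared over populations, and the p-values treat the library as the only replicate. The 23 genes used by any gate were counted in library sizes but not tested. The block pairs populations of the same library, and their deviations correlated at 0.249 (5996 genes) and 0.236 (6285 genes) for the comparisons with class II-matched cells and monocytes. The procedure was tested on simulated data.

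Named genes are the 10 with the largest change in each direction past the threshold, with the same sign in both libraries and at least 50 mean CPM, up to 4 members per list and direction, and the markers; other genes are said to have been chosen after their values were seen, or are given as members of a list that did not pass. Alternatives were DESeq2 1.42.0, RLE size factors, no filter, no block, leaving out a library, doublet removal with Scrublet (scanpy 1.11.5; cells with the highest scores, 12.0% and 6.33%, because its own threshold marked 9.48% and 0%), at least 2 UMIs of the 6 genes, at least 20 class II UMIs and a C1q limit. Doublets were otherwise kept. Where the values of 2 populations are said not to overlap, that is a description of the named genes and carries no test. The share of all tested genes that separate in this way was not counted. Intervals are exact at 95%, and the limit behind a count of 0 is 3 counts; both cover counting error only. Promoter sequences are from RefSeq (GRCm38.p6).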

Additional observations from a re-analysis of the deposited data

How the results depend on the processing

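Against class II-matched cells (140 genes higher, 65 lower) the counts were 294 and 160 with DESeq2, 324 and 321 without a filter on low counts (50.2% of calls higher, against 68.3%), 31 and 10 with no replicate block, 60 and 22 with at least 20 class II UMIs, and 12 and 27 with under 10 C1q UMIs per 10000 (30.8% higher). Doublet removal gave 113 lower genes and at least 2 UMIs of the 6 genes gave 127, and DESeq2 kept 204 of the 205 first calls. Without 1 library's dendritic cells the counts ranged from 6 to 25 higher and from 0 to 5 lower. RLE size factors and leaving out shared barcodes stayed within 1.5 times. Against monocytes (539 and 611) the fit with no replicate block gave 344 lower genes, and leaving out 1 library's dendritic cells gave 63 to 343 higher and 38 to 297 lower; a lone sum is assumed to vary like the others. The other settings stayed within 1.5 times. Lyz1 turned to 0.82 with the C1q limit, and Ccnb2 to -7.31 without the dendritic cells of replicate 2 and to -3.73 in replicate 1 alone, against 3.86 in replicate 2 alone. The causes were not tested. Tbc1d4, H2-Ob and H2-Oa passed in every fit run against class II-matched cells.

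The share of dendritic cells was 0.266% in replicate 1 with at least 2 UMIs, and 0.279% and 0.683% with the C1q limit. Cells with Flt3 or Fscn1 only were then 5.56% of the dendritic cells of replicate 2, against 15.7%; the shares of the other 3 subsets stayed within their intervals. Klrd1 had a UMI in 37.9% and 29.2% of cells thinned to 1000 UMIs and in 65.2% of replicate 2 unthinned, and Mgl2 in 13.5% of replicate 2 thinned to 1000. The planned tests of the type 1 and Ccr7 subsets against type 2 were not run, since these have under 20 cells in a library. With 2 libraries and 155 cells, a gene that does not pass may still differ.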
